A study of Mus musculus with 2 samples.

Results

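The lubricin mesothelial cells were 504 of the 16334 barcodes in single-cell RNA sequencing of an aged mouse bladder. Mesothelium is the thin epithelium that covers organs facing the body cavities. It keeps them sliding over one another by secreting lubricin, a mucin-like glycoprotein encoded by Prg4, and hyaluronan, and by carrying large surface mucins such as Muc16. Mesothelial cells also act as sentinels that can secrete acute-phase proteins and chemokines when the cavity is inflamed.

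The bladder came from 1 male p16-CreERT2/R26-LSL-tdTomato mouse aged 25 months, in which tamoxifen activates a Cre recombinase driven by p16, the cell-cycle inhibitor encoded by Cdkn2a, and Cre switches on the red reporter tdTomato. Tamoxifen was injected on 5 days in a row and the bladder was taken 2 weeks later. Live cells without the leukocyte antigen CD45 were sorted by tdTomato into a Tom- library of 13551 barcodes and a Tom+ library of 2783 barcodes. Both libraries carry the same alleles and treatment, the mark records p16 promoter activity around the time of tamoxifen and not at harvest, and with 1 library of 1 animal in each group no difference has a replicate check. Intervals below therefore cover counting error only, and no p-value is given.

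Cells were kept with at least 1000 UMIs (unique molecular identifiers, each standing for 1 captured RNA molecule), at least 500 genes and under 15% mitochondrial UMIs. A barcode found in both libraries was kept only where its copy in the other library was over 10 times shallower. Mesothelial cells had Msln, Lrrn4 and Upk3b together at 5 or more per 10000 UMIs, with at least 2 of these genes detected, and the urothelial uroplakins Upk1a, Upk2 and Upk3a together under 3 per 10000. Of the 940 mesothelial cells, the 504 whose rank of Prg4 exceeded their rank of Saa3, an acute-phase apolipoprotein, are the lubricin cells, 435 in Tom- and 69 in Tom+. The 435 with the opposite order, 363 in Tom- and 72 in Tom+, are called acute-phase cells, and 1 cell had equal ranks. Of these acute-phase cells 61 had 0 Saa3 UMIs and 218 had 0 Prg4 UMIs, so the name does not mean that each of them held Saa3. The members were thus chosen by their measured levels of these 8 genes in the same cells, so the contrast between lubricin and acute-phase cells is a description with no test.

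Levels are summed UMIs over a class divided by all UMIs of that class and scaled to CPM, the usual depth-scaled count unit. Prg4 (chr1:150449412-150466165, minus strand, GRCm38) stood at 1716 CPM in lubricin cells of Tom- and at 1307 CPM in those of Tom+, against 6.1 CPM in Tom- fibroblasts and 1.66 CPM in Tom- superficial urothelial cells. Prg4 and Msln, which encodes the surface protein mesothelin and was at 680 and 727 CPM, were part of the rule. The label was therefore checked against the 7 mesothelial markers the rule did not use, and all 7 were at 50 CPM or more in both libraries. In each library 5 of the 7 were over 10 times their level in fibroblasts, the exceptions being Wt1 and Nkain4, and 6 were over 10 times their level in superficial urothelial cells, the exception being Krt19. Muc16, the binding partner of mesothelin, was at 468 and 496 CPM. Slpi, a secreted protease inhibitor of mucosal surfaces, reached 5005 and 4199 CPM, and Wt1, a transcription factor of the mesothelial lineage, 327 and 294 CPM. Ptprc, which encodes CD45, had 0 UMIs in all 504 cells, which allows up to 0.338 CPM in Tom- and 2.61 CPM in Tom+. Calb2, the mesothelial marker calretinin of pathology, had 1 UMI.

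Sums of 8885951 UMIs in Tom- and 1149667 UMIs in Tom+ stand behind these levels, with medians of 19677 and 16433 UMIs per cell. The split into lubricin and acute-phase cells was a cut set by rank, and some cells lay near it. There were 138 mesothelial cells whose 2 ranks differed by under 10% of the 940 cells, 48 of them lubricin cells. In 28 mesothelial cells the ranks differed by under 5%. The 5 lubricin cells nearest the border had median levels of 632 CPM for Prg4 and 126 CPM for Saa3, and the 5 nearest acute-phase cells 1220 and 881 CPM. The lowest summed Msln, Lrrn4 and Upk3b of a lubricin cell was 5.14 per 10000 UMIs, and the highest of a cell just outside was 4.88.

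**Figure D1:**
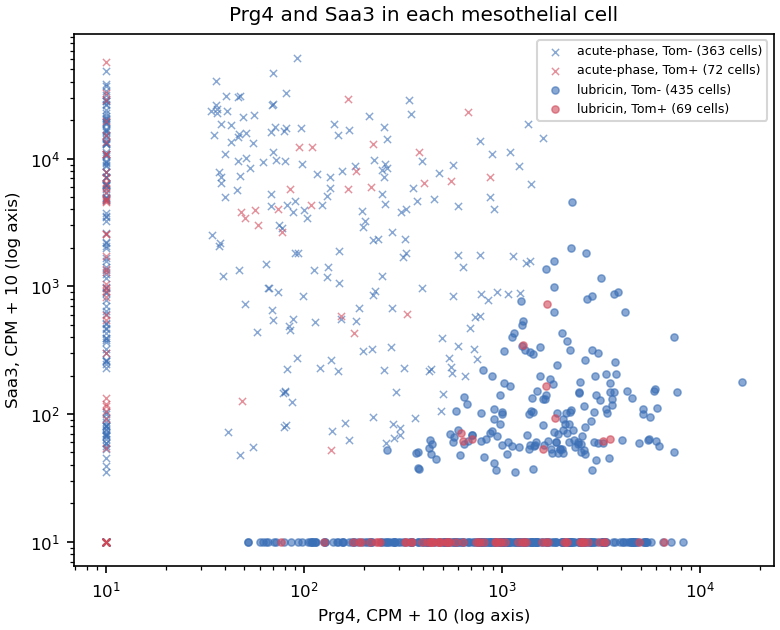
Prg4 against Saa3 in each of the mesothelial cells, in CPM + 10 on log axes, with 1 point per cell; circles are lubricin cells, crosses acute-phase cells, blue Tom- and red Tom+. Of the 504 lubricin cells, 320 had 0 Saa3 UMIs and lie along the lower edge, as do 61 acute-phase cells.

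Promoters are shown for 3 genes of the results that follow: Slpi, among the highest secreted products of the lubricin cells, Per3, one of the clock genes that were higher in them, and Saa3, the acute-phase gene that set the border. The sequences are the 250 bases before the RefSeq start (GRCm38.p6), read 5′ to 3′ on the gene's strand. Capitals mark matches, on either strand, to the E-box CACGTG bound by clock and other basic helix-loop-helix factors, the D-box TTANGTAA bound by the PAR bZIP factors, the C/EBP motif TTGCNNAA or the TEAD motif GGAATG.
Slpi (chr2:164356508-164356757, minus strand): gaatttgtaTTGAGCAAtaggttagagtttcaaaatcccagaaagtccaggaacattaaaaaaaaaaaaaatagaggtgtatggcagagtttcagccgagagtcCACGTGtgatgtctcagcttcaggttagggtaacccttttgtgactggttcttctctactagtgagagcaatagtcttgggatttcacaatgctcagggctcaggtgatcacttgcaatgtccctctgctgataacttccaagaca
Per3 (chr4:151044666-151044915, minus strand): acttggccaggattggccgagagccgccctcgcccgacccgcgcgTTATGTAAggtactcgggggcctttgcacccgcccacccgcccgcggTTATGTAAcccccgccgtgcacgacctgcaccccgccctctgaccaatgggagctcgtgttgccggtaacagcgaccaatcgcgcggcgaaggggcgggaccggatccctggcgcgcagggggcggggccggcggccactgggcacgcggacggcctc
Saa3 (chr7:46715677-46715926, minus strand): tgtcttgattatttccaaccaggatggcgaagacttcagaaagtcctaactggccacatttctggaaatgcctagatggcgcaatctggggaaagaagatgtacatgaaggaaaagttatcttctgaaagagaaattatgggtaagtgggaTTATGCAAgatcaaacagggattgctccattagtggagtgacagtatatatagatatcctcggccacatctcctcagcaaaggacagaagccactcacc
Slpi held 1 E-box and 1 C/EBP match, Per3 held 2 D-box matches and Saa3 held 1 C/EBP match. Dbp, Nr1d1, Nr1d2, Tef and Hlf, other clock genes higher in lubricin cells, held 0 D-box matches. Over all 32851 promoters of the same length, 6.02% held the E-box, 2.06% the D-box, 9.56% the C/EBP motif and 12.6% the TEAD motif. Of 33 genes looked up, 23 had a promoter in the table. A match describes the letters and does not show that a factor binds there.

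Single cells differed widely in Prg4. Among the 435 Tom- lubricin cells the lowest held 41.9 CPM, the median 1350 CPM and the highest 16240 CPM. Among the 69 Tom+ cells these values were 66.1, 760 and 6526 CPM. The ranges of the libraries overlapped. Slpi was uneven between cells, with 39.9% of its Tom- UMIs in the 10% of lubricin cells that held most. Ccl2, a monocyte-attracting chemokine, was rarer and by this share more uneven, with 93.3% in such a 10% of cells and 37.4% in 1 cell. The median cell held Msln at 608 CPM in the first library and at 742 CPM in the second, and Upk3b, an uroplakin-related gene that mesothelium also expresses, 765 and 745 CPM.

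Lubricin cells made up 54.4% of the 799 Tom- mesothelial cells (95% Clopper-Pearson interval 50.9% to 57.9%) and 48.9% of the 141 Tom+ mesothelial cells (40.4% to 57.5%). The direction turned when shared barcodes were not counted: 966 barcodes occurred in both libraries, and they included 16 of the 69 Tom+ lubricin cells and 40 of the 72 Tom+ acute-phase cells but 1 of the 435 Tom- lubricin cells. Without them the Tom+ share was 62.4% (53 of 85 cells, 51.2% to 72.6%) and the Tom- share 54.4%. The order also turned with the shared barcodes in, when cells holding markers of other types were left out before ranking, which gave 55.7% in Tom- and 62.5% in Tom+. No order of the 2 shares is therefore given. The Tom+ lubricin cells with shared barcodes held tdTomato in 15 of 16 cells, at 786 CPM, and those without in 53 of 53 cells, at 940 CPM. The acute-phase Tom+ cells had Saa3 at 9816 CPM with shared barcodes and 2632 CPM without.

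The lubricin cells differed from the acute-phase cells in many genes besides Prg4 and Saa3. Of 3299 measured genes (at least 50 CPM in 1 class and 20 UMIs over both), 86 were at least 2-fold higher in Tom- lubricin cells and 96 at least 2-fold lower on the log2(CPM + 1) scale, which are 2.61% and 2.91% of the genes and 5.52% in either direction. In Tom+, 171 of 3462 genes were higher (4.94%) and 187 lower (5.4%), or 10.3% in either direction. The higher genes shared between the libraries numbered 69, which is 80.2% of those called in Tom- and 40.4% of those called in Tom+. The shared lower genes numbered 86, or 89.6% and 46.0%. Fibroblast markers also differed between the classes: 231 of 363 Tom- and 45 of 72 Tom+ acute-phase cells held the fibroblast markers Pdgfra, Dpt and Lum at 3 or more per 10000 UMIs, against 81 of 435 and 7 of 69 lubricin cells. The sum of all 8 fibroblast markers was higher in lubricin cells, at 23738 against 21429 CPM in Tom- and 22140 against 20112 CPM in Tom+. Most of that sum was Dcn, at 22255 and 15865 CPM in Tom- lubricin and acute-phase cells, while 5 of the 6 measured fibroblast markers, Pdgfra, Lum, Col1a1, Col1a2 and Col3a1, were 2-fold lower in Tom- lubricin cells. Not counting the cells that held markers of fibroblasts, endothelium or leukocytes, with the classes kept, gave 53 genes higher and 81 lower in Tom-, and 147 and 201 in Tom+. Leaving them out before ranking, which also moved the border between the classes, gave 28 and 56 in Tom- and 104 and 146 in Tom+. The part of that marker RNA in each difference was not tested. Barcodes found in both libraries were 40 of the 72 Tom+ acute-phase cells, and with the classes kept and these not counted many Tom+ ratios were smaller; they are given beside the genes.

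The genes with the largest ratios in lubricin cells were named by rule. Adam23, an integrin-binding surface protein, was at 608 CPM in Tom- lubricin and 96.6 CPM in acute-phase cells, a ratio of 6.30 (5.87 to 6.76). In Tom+ the same gene was at 743 and 56.6 CPM. Myl7, an atrial myosin light chain, was at 291 and 37.4 CPM in Tom- and 263 and 10.8 CPM in Tom+. Smoc2, a matricellular protein, was 6.01 times higher in Tom- lubricin cells and 6.98 times in Tom+. Aqp1, a water channel, was at 296 CPM in Tom- lubricin cells and 465 CPM in Tom+ ones, against 71.4 and 25.5 CPM in the acute-phase cells. Fxyd3, Chrdl1, Anxa8 and Kcnd2 were higher by 4.24 to 5.48 times in Tom- and 4.43 to 7.76 times in Tom+. Each of these 8 genes was higher in lubricin cells in both libraries. Without the shared barcodes, the Tom+ ratio of Adam23 was 4.49 in place of 13.1, that of Myl7 9.65 in place of 24.4, that of Aqp1 7.35 in place of 18.3 and that of Smoc2 5.25. Fxyd3 and Anxa8 were then at 3.15 and 2.54, in place of 7.76 and 6.26. With the marker-holding cells not counted and the classes kept, the Tom- ratios were smaller, at 3.05 for Adam23, 3.23 for Myl7, 3.19 for Smoc2 and 1.91 for Aqp1, and between 2.21 and 3.58 for the other 4 genes. Left out before ranking, they gave 2.24 for Adam23, 2.52 for Myl7, 2.48 for Smoc2, 1.87 for Anxa8 and 1.5 for Aqp1. Aqp1 was also at 1491 CPM in Tom- endothelial cells.

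Trem2, better known as a lipid receptor of macrophages and microglia, was at 1419 CPM in Tom- lubricin cells and 293 CPM in acute-phase cells. The Tom+ values were 1313 and 180 CPM. A UMI was found in 97.2% of Tom- lubricin cells (77.8% with each cell thinned to 2000 UMIs) and in 7.03% of superficial urothelial cells, which are deeper, with medians of 19677 and 39806 UMIs. In fibroblasts, superficial urothelial cells and endothelial cells of Tom- it was at 17.1, 2.08 and 4.86 CPM. Its adaptor Tyrobp had 0 UMIs in lubricin and acute-phase cells of both libraries. Its Tom- ratio was 4.85, 2.73 with the marker-holding cells not counted and the classes kept, and 2.17 with them left out before ranking. Its Tom+ ratio was 7.29, and 3.59 without the shared barcodes.

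A pair of fibroblast growth factors was higher in lubricin cells. Fgf1, which can signal through all FGF receptors, was at 560 and 412 CPM in Tom- and Tom+ lubricin cells and at 170 and 104 CPM in acute-phase cells. The Fgf1 ratio in Tom- was 3.30, 2.44 with the marker-holding cells not counted and the classes kept, and 1.78 with them left out before ranking. Fgf9 was 2.06 times higher in Tom- lubricin cells (1.83 to 2.33) and 2.07 times in Tom+ (1.55 to 2.79). It was under 2-fold with the marker-holding cells not counted, at 1.59 in Tom- and 1.76 in Tom+, and at 1.56 in Tom+ without the shared barcodes. Of 19 measured genes in a list of BMP, Wnt, IGF and growth factors, Fgf1 and Fgf9 were 2-fold higher in Tom- and 4 were lower: Fstl1, Sfrp2, Igfbp4 and Mdk. The list's median log2 ratio was 0.10, beside -0.03 over all genes.

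Of 11 measured genes for surface lubrication and hyaluronan, Prg4 and the proteoglycan gene Podn were higher in Tom- lubricin cells and the hyaluronan receptor gene Cd44 lower, with a list median of 0.46. Podn stood at 156 CPM in Tom- lubricin cells and 48.0 CPM in acute-phase cells, and its log2 ratio was 1.68, or 0.82 with the marker-holding cells left out before ranking. Of 20 measured genes of mesothelial identity, a list that holds the genes of the gate, 0 passed 2-fold in Tom- and the median was 0.29. In Tom+, Slpi and Cpe were higher and Lrrn4 lower among 19; without the shared barcodes the ratio of Lrrn4 was 0.69, no longer 2-fold. Msln was 1.59 times higher in Tom- lubricin cells, and Upk3b 1.07 times. The 11 measured complement genes had 0 calls in Tom-. Complement C3 itself was at 11006 CPM in Tom- lubricin cells.

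Chemokine and stromal matrix genes were among those lower in lubricin cells. Hp, which encodes haptoglobin, was at 17.7 CPM in Tom- lubricin and 698 CPM in acute-phase cells. Of 7 measured chemokines, Cxcl1, Cxcl5, Cxcl10, Ccl2 and Ccl7 were lower in Tom- and Cxcl14 higher, with a list median of -3.35. Cxcl5, a neutrophil attractant, was at 49.0 CPM against 983 CPM. Acute-phase genes did not all follow Saa3: Saa3, Hp, Cp and Il1r1 were lower among 19 measured, while Lcn2, Lbp and Serpina3n were higher, the last 2 of these in Tom+ as well. Lbp, which encodes the lipopolysaccharide-binding protein, was at 403 CPM in Tom- lubricin cells and 137 CPM in acute-phase cells, and at 412 and 103 CPM in Tom+. Of 24 measured collagens and stromal matrix genes, 13 were lower and 0 higher in Tom-, with a median of -1.08. Fn1, encoding fibronectin, was at 78.8 CPM against 1233 CPM. These matrix genes went with the fibroblast markers given above, whose part was not tested.

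Calls in the remaining lists between lubricin and acute-phase cells are given for Tom-, where 2.61% of all measured genes were higher and 2.91% lower. Acta2 and Tagln, contractile genes, were lower among 15 measured genes of the TGF-beta response, and Col4a5 among 8 of basement membrane. Aldh1a1 and Rdh10, enzymes of retinoic acid synthesis, were lower among 6 retinoid genes, with Aldh1a1 at 97.1 CPM in lubricin and 291 CPM in acute-phase cells. Fabp5 and Lpl were lower among 10 genes of lipid handling, Serpinf1 among 5 of coagulation and Cldn3 among 16 of keratins and junctions. Gpx3, a secreted glutathione peroxidase, was higher among 14 genes of oxidative stress. Of 16 secretory factors linked to senescence, Cxcl1, Ccl2, Ccl7, Igfbp4 and Angptl4 were lower. The 5 measured cell-cycle inhibitors, the 14 interferon genes, the 26 dissociation genes and the 5 prostaglandin genes had 0 calls, and 0 of 16 proliferation genes reached the level to be measured. Of the dissociation genes 21 had a log2 ratio under 0, with a median of -0.20. In Tom+ Jun, Ier2, Atf3, Dusp1 and Klf4 were lower among 26 of them (median -0.48), beside 5.4% of all genes. Hpgd was higher there among 5 prostaglandin genes, and the interferon and cell-cycle lists had 0 calls.

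**Figure D2:**
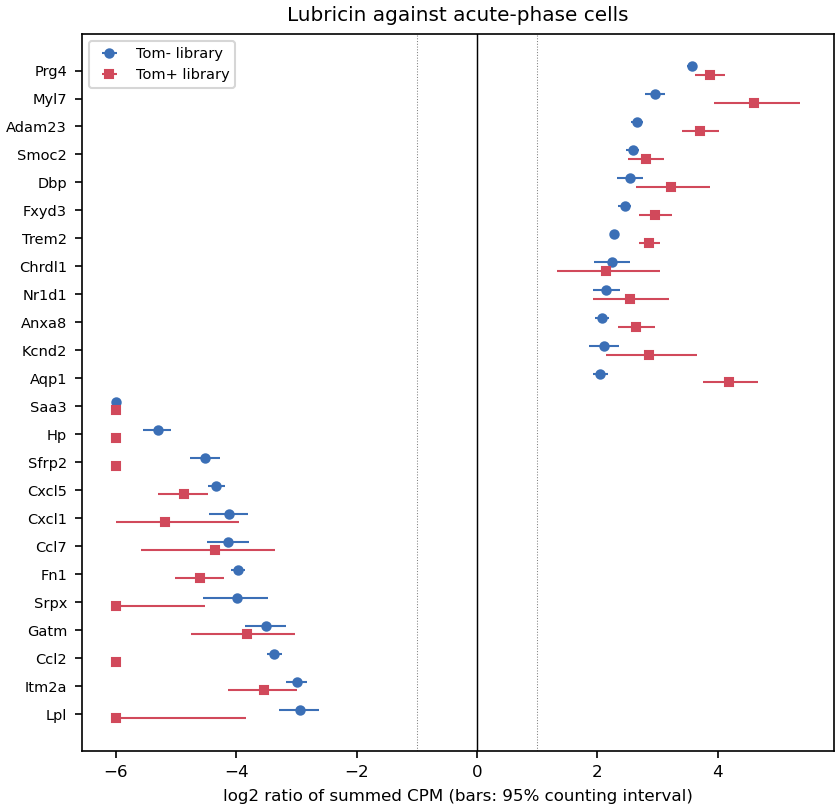
Log2 ratio of summed CPM, lubricin over acute-phase cells, for the 12 highest and 12 lowest genes by rule, in the Tom- library (blue circles) and the Tom+ library (red squares), with 95% counting intervals as bars. Dotted lines mark 2-fold, and every gene lies on the same side of 0 in both libraries; values under -6 are drawn at -6.

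With the mesothelial cells ordered by Prg4 rank minus Saa3 rank into 10 groups of 94 cells, summed levels of several genes differed by degrees. Such sums mix the cells of a group, and whether single cells form a range was not tested. Trem2 was at 66.4 CPM in the lowest group and 1932 CPM in the highest, and Fgf1 at 52.6 and 602 CPM. Fn1 went from 2052 to 19.1 CPM. Among the genes of the mesothelial gate, Upk3b stayed between 727 and 841 CPM, Msln was at 341 CPM in the lowest group and 831 CPM in the highest, and Lrrn4 at 438 and 245 CPM. Cdkn2a was at 8.83 CPM in the lowest group and had 0 UMIs in the highest.

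**Figure D3:**
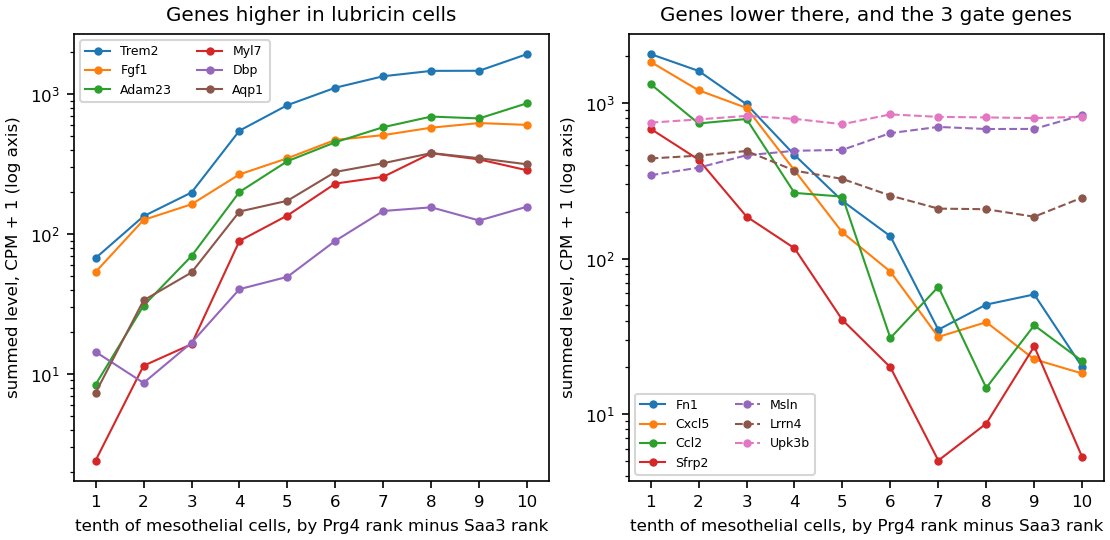
Summed level in CPM + 1 on a log axis in each of 10 groups of mesothelial cells of both libraries, ordered from low to high Prg4 rank minus Saa3 rank. Trem2, Fgf1 and 4 other genes are higher towards the right in the left panel, while Fn1 and chemokines are lower there in the right panel and the 3 gate genes (dashed) part, with Msln higher to the right, Lrrn4 lower and Upk3b level.

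Clock genes formed a second pattern, noted after Dbp and Nr1d1 were named by rule. These are output and feedback genes of the circadian clock: Dbp, Tef and Hlf encode PAR bZIP activators, and Nr1d1 and Nr1d2 encode REV-ERB repressors. Dbp was at 125 CPM in Tom- lubricin cells and 21.4 CPM in acute-phase cells, a ratio of 5.81 (5.00 to 6.79). In Tom+ it was at 144 and 15.3 CPM, a ratio of 9.38 (6.22 to 14.7). The ratios of Tef, Hlf, Nr1d1, Nr1d2 and Per3 lay between 3.26 and 4.43 in Tom- and between 5.01 and 7.68 in Tom+. Ratios under 1 were found for 3 clock genes: Arntl, the activator of the clock, had a ratio of 0.58 (0.44 to 0.75), Cry1 0.55 (0.39 to 0.76) and Nfil3, the D-box repressor, 0.42 (0.33 to 0.54) in Tom-. In Tom+ these ratios were 0.45, 0.20 and 0.17, from 10, 3 and 5 UMIs in lubricin cells. Without the shared barcodes the Tom+ intervals of Arntl (0.121 to 1.001) and Cry1 (0.0205 to 1.16) held 1. That of Nfil3 did not (0.0362 to 0.832). Among 18 of 19 clock genes with at least 20 UMIs in Tom-, the interval lay above 1 for 12 and below 1 for 3. Over all 12734 genes with at least 20 UMIs, 22.2% lay above and 19.3% below. Those shares were not matched for UMI count. Clock, the partner of Arntl, was on the side of Dbp, at 1.26 times (1.09 to 1.45) in Tom- and 1.59 times in Tom+, and its paralog Npas2 at 1.22 times (0.876 to 1.71). With the marker-holding cells not counted and the classes kept, the ratio of Dbp was 4.15 in Tom- and 11.5 in Tom+, and that of Nr1d1 2.55 and 3.68. The interval of Cry1 in Tom- then held 1 (0.454 to 1.30). Left out before ranking, those cells gave 2.89 for Dbp and 1.85 for Nr1d1 in Tom-. Without the shared barcodes the Tom+ ratio of Dbp was 8.03 and that of Nr1d1 2.82, in place of 5.81. The genes were chosen after their values were seen.

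**Figure D4:**
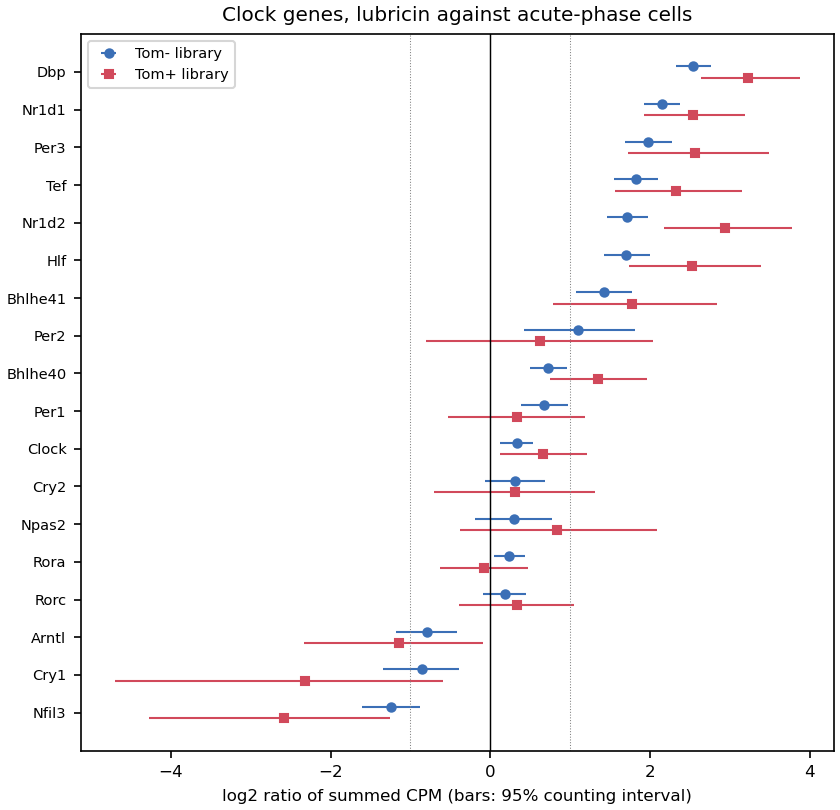
Log2 ratio of summed CPM, lubricin over acute-phase cells, for clock genes with at least 20 UMIs in Tom- lubricin cells, ordered by the Tom- ratio, with 95% counting intervals as bars; circles are the Tom- and squares the Tom+ library. Dbp, Nr1d1, Per3 and Tef lie to the right of 0, and Arntl, Cry1 and Nfil3 to the left, in both libraries.

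The reporter marked the Tom+ library, where lubricin cells had tdTomato at 890 CPM, against 9.57 CPM in Tom-. Cdkn2a, whose p16 promoter drives the Cre, was near 0 in both: 2 UMIs in 2 of 435 Tom- cells (0.460%, interval 0.0557% to 1.65%) and 0 UMIs in 69 Tom+ cells, which allows up to 2.61 CPM. Acute-phase cells with a UMI numbered 39 of 363 (10.7%) in Tom- and 8 of 72 (11.1%) in Tom+. Superficial urothelial cells, where 10 UMIs gave a share of 0.974% in Tom-, had a median of 39806 UMIs, against 19677 in the Tom- lubricin cells. The interval of the Tom- lubricin share holds that value. Whether these UMIs come from free RNA was not tested.

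Few other genes differed by 2-fold between Tom+ and Tom- lubricin cells. Of 3244 measured genes, 2 were at least 2-fold higher in Tom+ (0.0617%), tdTomato and Pappa, and 21 lower (0.647%), or 0.709% in either direction. In acute-phase cells the same comparison gave 4 higher (0.127%) and 11 lower (0.348%) of 3161, or 0.475% in either direction. Pappa, a secreted protease that cleaves IGF-binding proteins, reached 65.2 CPM in the Tom+ lubricin cells, against 26.2 CPM in the Tom- ones, a ratio of 2.49 (1.89 to 3.24). Acute-phase cells had a ratio of 0.85, which turned to 2.52 with the shared barcodes not counted, where the lubricin ratio was 2.15. Aqp1 was 1.57 times higher (1.43 to 1.73), and Piezo2, a mechanosensitive channel, was at 141 CPM against 74.6 CPM. Prg4 itself was 0.76 times its Tom- level (0.72 to 0.80), and Fgf1 0.74 times. With all shared barcodes left out, 14 genes were higher and 26 lower.

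The genes lower in Tom+ lubricin cells included Tcf21, Sparcl1, Col14a1, Col1a1, Col1a2, Acta2 and Tagln, known from fibroblasts and smooth muscle. Tcf21 had 1 UMI in Tom+ lubricin cells, a ratio of 0.0167 (0.000421 to 0.0933) to the 52.2 CPM of Tom-, and stood at 961 CPM in Tom- fibroblasts. Col1a1 was at 46.1 and 237 CPM. Fibroblast markers in cells of another type moved with these genes: their sum came to a mean of 36.8 UMIs per superficial urothelial cell in Tom- and 4.99 in Tom+, with median cells at 232 and 44.7 CPM and highest cells at 24864 and 6451 CPM. The haemoglobin and Alas2 sum, RNA of red cells, came to 5747 CPM of the Tom- lubricin sum but 30.4 CPM of the Tom+ one. The Tom- sum rested on few cells, with the median cell at 341 CPM, the highest at 475043 CPM and 3 cells over 1% haemoglobin; the median Tom+ cell was at 0. The smooth muscle marker sum was at 172 and 41.8 CPM, and Scrublet predicted 38 doublets among the 435 Tom- cells but 0 among the 69 Tom+ cells. Their part in the lower genes was not tested. Without the doublets 11 genes were lower, and among genes at or above 20% of their level in every other class 7 were. Of 25 measured dissociation and immediate-early genes 1 was lower, Dusp1, and the list median was -0.25. Of 19 collagens and stromal matrix genes 4 were lower and 18 had a log2 ratio under 0, with a median of -0.33. Ccl2 was lower among 3 chemokines (median -0.45) and 13 secretory factors, and Fabp4 among 9 lipid genes. Acta2 and Tagln were lower among 15 TGF-beta genes. Saa3, part of the rule, was lower among 16 acute-phase genes, at 0.317 times (0.219 to 0.445). The mesothelial identity list (20 measured), the complement list (11), the interferon list (14), the keratin and junction list (17) and the oxidative stress list (15) had 0 calls in either direction, with medians between -0.05 and 0.08. Lower medians with 0 calls were -0.27 for 5 cell-cycle inhibitors and senescence regulators, -0.24 for 4 basement membrane genes and -0.20 for 9 surface lubrication genes. The coagulation, retinoid, growth factor and prostaglandin lists, also with 0 calls, lay between -0.07 and 0.01.

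**Figure D5:**
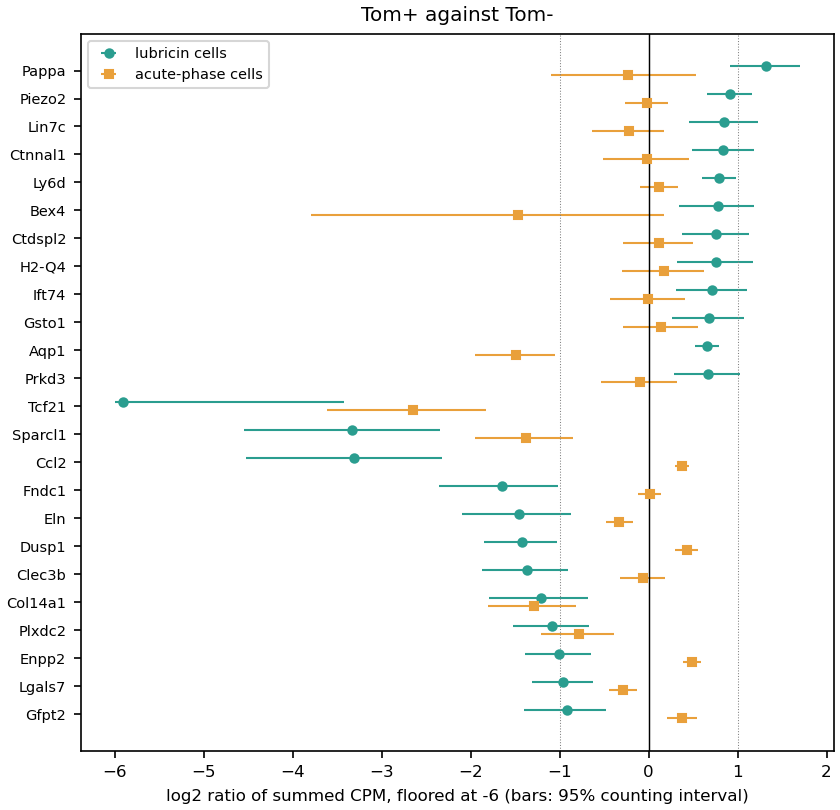
Log2 ratio of summed CPM, Tom+ over Tom-, for the 12 highest and 12 lowest genes by rule in lubricin cells (green circles) and in acute-phase cells (orange squares), with 95% counting intervals as bars and values under -6 drawn at -6. Among the genes at the top, Pappa lies past the 2-fold line in lubricin cells; Aqp1 lies on opposite sides of 0 in the 2 classes, with its acute-phase ratio at 0.357, or 0.897 without the shared barcodes.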

How the data were processed

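Droplet-based 3′ single-cell RNA sequencing measured RNA in CD45-negative, DAPI-negative bladder cells of 1 mouse, sorted by tdTomato into 2 libraries. The deposited files hold raw UMI counts for 31054 features in each barcode. Cell Ranger 7.0.0 and build mm10 are named per the submitters' processing notes; per the file headers the matrix software is 3.0.2. The step that selected barcodes is not given in the sources used here.

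From these counts, class sums were scaled to CPM (Python 3.11.15, numpy 2.4.6, scipy 1.17.1). Log2 ratios used 1 CPM added; ratios have exact conditional binomial intervals, shares Clopper-Pearson intervals, all at 95%. Doublets were predicted with Scrublet (scanpy 1.11.5) per library and kept; TMM used edgeR 4.0.16 on R 4.3.3. The 12 highest and lowest genes in each comparison were named, with list members, among genes with a UMI in at least 10% of cells and at least 5% of their level in other classes. The members and gene lists were chosen with earlier results of these data known. The calculation was tested on simulated data.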

Additional observations from a re-analysis of the deposited data

Results flagged for a closer look

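Among 152 named genes, 24 had Tom+ to Tom- ratios on opposite sides of 1 in lubricin and acute-phase cells with both intervals off 1, and 13 of these were at least 1.2-fold in both, a limit set after seeing the data. The difference between the classes was not tested, and each value is from 1 library per group. These values rest on the barcodes found in both libraries, 40 of the 72 Tom+ acute-phase cells. With the classes kept and these not counted, 6 of the 13 genes had ratios on opposite sides of 1, and 2 of them, Dusp1 and Hpgd, had both intervals off 1. With all these cells counted, Aqp1 was 1.57 times higher in Tom+ lubricin cells and 0.357 times in acute-phase cells. Adam23, Cpe, Gstm1, Hpgd, Tgfbi and Timp1 went the same way, at 1.22, 1.29, 1.62, 1.33, 1.39 and 1.21 in lubricin cells and 0.586, 0.740, 0.830, 0.775, 0.727 and 0.696 in acute-phase cells. The chemokine gene Ccl2 was at 0.101 in lubricin cells and 1.30 in acute-phase cells; in Tom- lubricin cells 37.4% of its UMIs came from 1 cell. Dusp1, Enpp2, Gfpt2 and Lcn2 were at 0.372, 0.496, 0.528 and 0.624 in lubricin cells and 1.35, 1.40, 1.30 and 1.32 in acute-phase cells. Srpx had 0 UMIs in Tom+ lubricin cells, a ratio of 0, and 1.31 in acute-phase cells. With cells holding other types' markers left out before ranking, the log2 ratio of Tom+ to Tom- in lubricin cells was -1.56 for Ccl2, -0.62 for Dusp1 and -0.32 for Enpp2. Without the shared barcodes, the acute-phase ratios were 0.897 for Aqp1 (0.604 to 1.29), 1.78 for Adam23, 1.92 for Gstm1, 1.71 for Tgfbi, 0.478 for Ccl2, 0.575 for Gfpt2, 0.668 for Lcn2 and 0.433 for Srpx.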

How the results depend on the processing

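Named settings below changed 1 choice each. The Tom+ share of lubricin cells was 62.4% without shared barcodes, whether the ranks were drawn again or kept, and 62.5% without cells holding other types' markers (Tom- 55.7%). With those cells not counted and the classes kept, the shares were 72.4% in Tom- and 69.3% in Tom+, since more acute-phase cells held such markers. For Tom+ against Tom- in lubricin cells, genes higher and lower numbered 7 and 11 without predicted doublets, 4 and 9 without cells holding other types' markers, 184 and 153 with each cell thinned to 2000 UMIs, 38 and 138 with a filter of 10 CPM, 1 and 7 with a filter of 200 CPM, and 24 and 50 with a fold of 1.5. Genes higher numbered 14 without shared barcodes and 5 with equal weight per cell, and genes lower 7 among those at or above 20% of every other class. For lubricin against acute-phase cells in Tom-, the counts were 28 and 56 without cells holding other types' markers (53 higher with the classes kept), 243 and 236 at 10 CPM, 29 and 32 at 200 CPM and 213 and 237 at a fold of 1.5. In Tom+ they were 553 and 500 at 10 CPM, 46 and 57 at 200 CPM, 444 and 446 at a fold of 1.5, and 104 higher without cells holding other types' markers. Filters and folds alter how many genes can be counted, and thinning leaves fewer UMIs; leaving cells out before ranking also moves the border between the classes; for the other settings the cause was not tested. TMM scaling moved the ratios by 0.02 to 0.06 on the log2 scale. Settings on free RNA, haemoglobin (cells over 0.3% left out) and the settings that keep the classes were added after seeing the data. Among 67 genes followed over 18 settings in the Tom+ to Tom- ratio and the Tom- class ratio, 0 with a 2-fold ratio turned direction. Several of these settings could not turn a direction. The filters, the fold and the 20% free RNA setting leave a gene's ratio as it is. Adding 5 CPM in place of 1 keeps its sign, and the TMM shifts were too small to turn a 2-fold ratio. No paired analysis was possible because each group has 1 library. The Tom+ sums rest on 69 lubricin cells and 1149667 UMIs, and the Tom+ acute-phase sums on 32 cells without shared barcodes.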

Other observations

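Class II antigen-presentation genes, chosen after their values were seen, were found in the lubricin cells. Cd74, the class II chaperone, stood at 1523 and 1179 CPM in Tom- and Tom+ lubricin cells and at 543 and 440 CPM in acute-phase cells. H2-Aa, H2-Ab1 and H2-Eb1 were at 330, 360 and 435 CPM in Tom- lubricin cells, and their ratios to acute-phase cells were 2.48, 2.39 and 2.60. In Tom+ the ratios were 2.17, 2.35 and 3.26. Ctss had 0 UMIs in lubricin cells, and Ptprc had 0 as well. Of 8 genes looked at, 7 had at least 20 UMIs in Tom-, and the interval lay above 1 for 6, beside 22.2% of all genes with at least 20 UMIs. That share was not matched for UMI count, and intervals narrow with more UMIs. Cd74 had 13532 UMIs in Tom- lubricin cells. In Tom+ the interval lay above 1 for 4 of these 7, and the share over all genes was not counted there. H2-DMa was at 3.12 (2.48 to 3.96) in Tom- but at 0.89 (0.47 to 1.64) in Tom+, or 0.45 without the shared barcodes. Without the barcodes found in both libraries, the Tom+ ratios of H2-Aa, H2-Ab1 and H2-Eb1 were 1.59, 1.37 and 1.96. With cells holding other types' markers not counted, H2-Aa was at 2.13 and Cd74 at 2.45 times the acute-phase level in Tom-.

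Several transcription factors, also chosen after their values were seen, were compared between the classes. Wt1 was at 0.91 (0.86 to 0.95) times the acute-phase level in Tom- and 0.79 in Tom+, and Gata6 at 0.76 and 0.81. Bnc2 was at 1.24 (1.12 to 1.37) and 1.76 (1.34 to 2.32), and Tbx18 at 0.90 and 0.93. Gata4 was at 1.39 (1.04 to 1.87) and 0.66 (0.30 to 1.34), the last from 12 UMIs in Tom+ lubricin cells. These factors and Bnc1 were under 2-fold in both libraries. Hoxa5 was under 2-fold in Tom-, at 1.32 (1.03 to 1.70), but not in Tom+, at 3.69 (1.70 to 8.64). The Tom+ value came from 24 UMIs in lubricin and 10 in acute-phase cells. Without the shared barcodes it was 5.92 (1.43 to 52.4).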
